A study of Mus musculus with 8 samples.

Results

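Genes that regulate cholesterol and oxysterols were examined in neutrophils taken from the lungs of mice with and without pneumonia. The group comprised Ch25h, Hmgcs1, Sqle, Srebf1, Srebf2, Insig1, Abca1 and Abcg1, chosen by name, and each of the 8 had a row among the 24625 rows of the deposited table, 19915 of which carried a gene symbol (19836 distinct symbols). No member had more than 1 row. Wild type (WT) mice of a C57BL/6J colony, aged 6 to 12 weeks per the labels, had been given either Streptococcus pneumoniae (SP) or phosphate-buffered saline (PBS), instilled intratracheally on the left side in a volume of 2.3 µl per g. Lungs were digested 24 h later and neutrophils were selected magnetically by Ly6G, a protein on their surface, in the same way in both groups, which differed in the instilled agent. Each of the 8 samples, 4 PBS and 4 SP, was hybridised to its own Affymetrix Mouse Gene 1.1 ST array. The precision is limited by this number of arrays. Values are log2 expression, and since they come from different probes a level of 1 gene cannot be set against that of another.

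Cells make cholesterol through the mevalonate pathway, in which Hmgcs1 encodes an early enzyme (HMG-CoA synthase) and Sqle a later one (squalene epoxidase). The transcription factors SREBP1 and SREBP2, encoded by Srebf1 and Srebf2, raise the genes of fatty acid and sterol synthesis when sterols are scarce, and Insig1 holds them in the endoplasmic reticulum, with their escort Scap, when sterols are plentiful. Ch25h hydroxylates cholesterol to an oxysterol, a class of molecules that bind Insig proteins and activate the nuclear receptors LXRα (Nr1h3) and LXRβ (Nr1h2). LXR in turn raises Abca1 and Abcg1, transporters that export cholesterol to apolipoproteins and lipoprotein particles. In myeloid cells Ch25h is also known as a gene induced by interferon and by bacterial products.

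Promoter sequences are shown for Hmgcs1, Srebf2 and Insig1, since each is known as a target of SREBP, and for Ch25h, which changed most. They were taken from RefSeq (GRCm38.p6), which held windows for 6 members, but not for Sqle or Abcg1, and each is printed 5′ to 3′ on the strand of its gene as the 250 bases before the transcription start. The 3 short motifs below were searched for on both strands: TCACNCCAC, the core of a sterol regulatory element bound by SREBP, CCAAT, a box bound by NF-Y, which acts beside SREBP, and GAAANNGAA, the core of an interferon-stimulated response element. Matches are in capitals, and ATTGG is CCAAT read on the opposite strand.
Hmgcs1 (chr13:119690101-119690350, plus strand): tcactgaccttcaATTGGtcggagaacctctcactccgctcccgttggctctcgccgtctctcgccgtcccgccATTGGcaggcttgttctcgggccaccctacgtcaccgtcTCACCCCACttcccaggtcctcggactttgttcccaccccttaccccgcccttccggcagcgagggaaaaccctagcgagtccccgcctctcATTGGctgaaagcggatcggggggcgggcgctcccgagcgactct
Srebf2 (chr15:82147019-82147268, plus strand): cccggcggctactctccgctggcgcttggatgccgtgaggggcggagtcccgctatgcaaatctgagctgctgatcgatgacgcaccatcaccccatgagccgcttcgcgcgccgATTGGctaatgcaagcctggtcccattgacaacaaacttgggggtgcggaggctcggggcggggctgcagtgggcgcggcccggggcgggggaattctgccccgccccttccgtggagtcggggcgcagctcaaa
Insig1 (chr5:28071162-28071411, plus strand): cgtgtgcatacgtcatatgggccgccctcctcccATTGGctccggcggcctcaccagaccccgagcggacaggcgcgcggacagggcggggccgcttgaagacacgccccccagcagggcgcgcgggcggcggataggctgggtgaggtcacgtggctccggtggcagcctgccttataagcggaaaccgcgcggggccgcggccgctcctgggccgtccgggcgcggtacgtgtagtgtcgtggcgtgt
Ch25h (chr19:34475149-34475398, minus strand): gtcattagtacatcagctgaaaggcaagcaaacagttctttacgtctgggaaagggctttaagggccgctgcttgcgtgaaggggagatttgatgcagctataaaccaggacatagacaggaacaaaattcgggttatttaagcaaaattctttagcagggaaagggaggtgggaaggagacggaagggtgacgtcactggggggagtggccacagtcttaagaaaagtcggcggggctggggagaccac

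The Hmgcs1 window held the sterol regulatory element core as TCACCCCAC, starting 137 bases before the transcription start, with CCAAT boxes on the opposite strand starting 237, 176 and 45 bases before it. Over all 32851 promoter windows of 300 bases, which also take in the 50 bases after the start, 1.24% held TCACNCCAC, 37.4% CCAAT and 8.56% GAAANNGAA. Of the 6 members with a window, Hmgcs1 alone held the first, 4 (Hmgcs1, Srebf1, Srebf2 and Insig1) held CCAAT and none held GAAANNGAA. The windows of Ch25h and Abca1 held none of the 3 motifs, which says only that these letters were not in this window. Of 16 sterol synthesis enzymes with a window, 15 held CCAAT, against 41.1% of all genes with a window, and 1, Hmgcs1, held TCACNCCAC. The search took exact matches only, so any window counted as without TCACNCCAC may hold a variant of it.

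Neutrophil markers were bright on every array (mean of 11 genes 12.25 to 12.50 in PBS and 11.69 to 12.84 in SP, with 3 of the 11 called lower and none higher, and 8 called lower without SP replicate 3), but markers of other lung cells were also present. Background is given by the Y-linked genes Ddx3y, Kdm5d and Uty, at 4.33 to 4.90 on these arrays. The study's purity check on stained cells was made in SP samples, not in PBS samples. It found few other cells there, mostly resembling alveolar macrophages, and the study describes Ly6G mRNA as high in every sample. Array medians were lower in SP by a mean of 0.28 log2 units, and centring the arrays on their medians raises every SP difference by that amount, so that differences smaller than this depend on the scaling. SP replicate 3 stood apart from the other SP arrays (highest r across rows 0.978 with them, against up to 0.995 between SP arrays). It had the highest SP value of 10 of 11 neutrophil markers, the lowest SP value of all 9 monocyte and macrophage markers and the lowest of 7 of 9 alveolar type 2 markers. Over all rows it had the highest SP value in 41.1% and the lowest in 33.9%. Results that rest on this array are given with and without it.

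Of the 8 members, 5 were called different between SP and PBS by limma (adjusted p not above 0.05), against 44.1% of all rows, and 4 of these differed at least 2-fold, against 17.6% of all rows. Ch25h, Abca1 and Insig1 were higher and Sqle and Srebf1 lower in SP (21.5% of all rows were called higher and 22.6% lower). At 2-fold, 2 members were higher and 2 lower, against 6.37% and 11.3% of all rows. The median difference over the members was 0.31 log2 units, against 0.10 over all rows. The groups did not overlap in 6 members, as in 49% of all rows. Without SP replicate 3, 6 members were called, and those called at 2-fold also numbered 4.

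**Figure D1:**
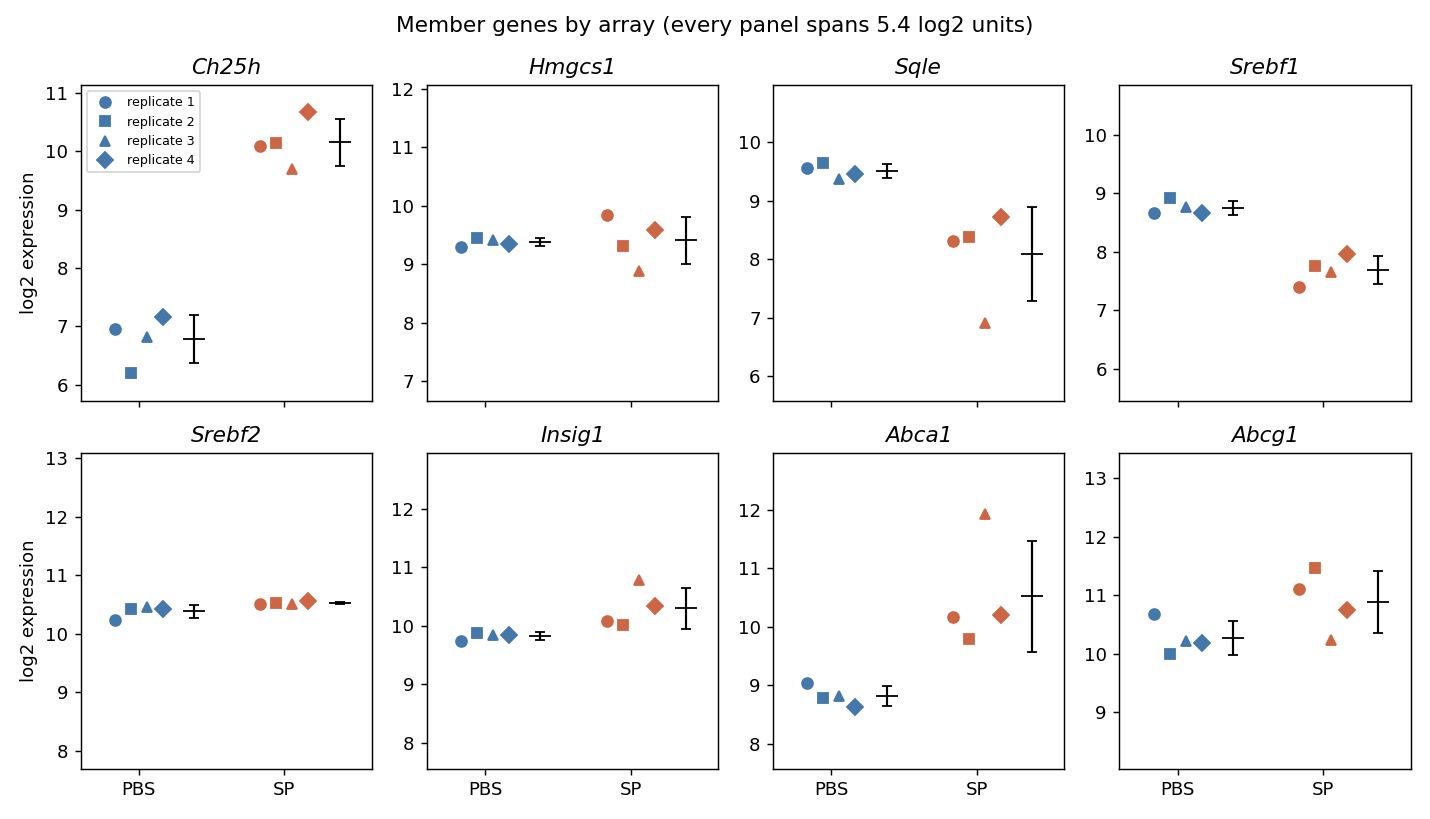
Log2 expression of each member on each array (y axis, every panel spanning the same range) in the PBS and SP groups (x axis); symbols mark replicates 1 to 4 and bars show the mean ± SD of 4 arrays. Ch25h and Abca1 lay higher and Sqle and Srebf1 lower on every SP array, and SP replicate 3 was the highest SP array for Abca1 and the lowest for Sqle.

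Ch25h, the oxysterol-making enzyme, showed the largest difference of the 8. Its level was 6.96, 6.20, 6.82 and 7.16 in PBS replicates 1 to 4 and 10.08, 10.14, 9.70 and 10.67 in SP replicates 1 to 4. Every SP value lay more than 2 log2 units above every PBS value. The mean rose from 6.78 ± 0.42 to 10.15 ± 0.40 (SD, n = 4 each), a difference of 3.36 ± 0.25 (SE) or 10.3-fold (adjusted p = 3.15e-05 by limma, 95% interval 2.79 to 3.94). The difference lay between 3.17 and 3.51 when any 1 sample was left out. The genes nearest to Ch25h in pattern, by root mean square distance of row-centred values over the 8 arrays, were Msr1, a scavenger receptor (0.18 log2 units), Ms4a4c (0.25) and Car13, a carbonic anhydrase (0.26).

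The 2 enzymes of sterol synthesis among the members went apart. Sqle lay at 9.56, 9.65, 9.37 and 9.45 in PBS replicates 1 to 4 and at 8.31, 8.39, 6.91 and 8.72 in SP replicates 1 to 4. All SP values were below all PBS values, and SP replicate 3 was the lowest. Sqle fell 2.69-fold (difference -1.43 ± 0.35 SE, adjusted p = 0.0117 by limma, 95% interval -2.23 to -0.62), and by -1.03 without SP replicate 3. Hmgcs1 lay at 9.30, 9.44, 9.41 and 9.34 in PBS replicates 1 to 4 and at 9.84, 9.31, 8.89 and 9.58 in SP replicates 1 to 4. The SP arrays lay on both sides of the narrow PBS range, with SP replicate 3 again the lowest. The means were 9.37 ± 0.07 and 9.41 ± 0.41 (SD, n = 4 each), and the difference of 0.03 was not called (adjusted p = 0.888 by limma, 95% interval -0.39 to 0.46). The sign of that difference turned with the samples used, to -0.11 without SP replicate 1 and 0.21 without SP replicate 3.

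The transcription factors also went apart. Srebf1 lay at 8.66, 8.92, 8.77 and 8.66 in PBS replicates 1 to 4 and at 7.39, 7.77, 7.66 and 7.96 in SP replicates 1 to 4, with no overlap. It fell 2.08-fold (difference -1.06 ± 0.13 SE, adjusted p = 0.000334 by limma, 95% interval -1.35 to -0.76), and by -0.77, which is under 2-fold, with arrays centred on their medians (adjusted p = 0.000974). The row does not separate the isoforms of SREBP1 that arise from different promoters. Srebf2 lay at 10.23, 10.42, 10.46 and 10.42 in PBS replicates 1 to 4 and between 10.51 and 10.56 in SP. The SP values lay just above the PBS values, but the difference of 0.14 was not called (adjusted p = 0.139 by limma, 95% interval -0.03 to 0.31). It was 0.42 with centred arrays (adjusted p = 0.00638) and -0.012 after another quantile normalization (0.916), so that neither its call nor its direction was independent of the scaling.

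Insig1, which retains SREBP, lay at 9.73, 9.88, 9.84 and 9.84 in PBS replicates 1 to 4 and at 10.07, 10.01, 10.78 and 10.34 in SP replicates 1 to 4. All SP values were above all PBS values, and SP replicate 3 was the highest. It was 1.39-fold higher in SP (difference 0.48 ± 0.16 SE, adjusted p = 0.0418 by limma), a call that 8 of 15 alternatives lost, among them the test that the study's methods name (0.0727), another quantile normalization (0.120) and leaving out any PBS sample (0.0700 to 0.101). The difference was 0.32 without SP replicate 3.

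Of the cholesterol exporters, Abca1 was called and Abcg1 was not. Abca1 lay at 9.03, 8.78, 8.81 and 8.62 in PBS replicates 1 to 4 and at 10.17, 9.79, 11.92 and 10.20 in SP replicates 1 to 4. All SP values were above all PBS values, and SP replicate 3 was far above the other SP arrays. Abca1 rose 3.27-fold (difference 1.71 ± 0.42 SE, adjusted p = 0.0112 by limma, 95% interval 0.76 to 2.66), and by 1.24 without SP replicate 3. Abcg1 lay at 10.68, 10.00, 10.22 and 10.17 in PBS replicates 1 to 4 and at 11.11, 11.47, 10.23 and 10.74 in SP replicates 1 to 4. Here SP replicate 3 was the lowest SP array and fell within the PBS range. The difference of 0.62 was not called (adjusted p = 0.0844 by limma, 95% interval 0.02 to 1.22). It was called without SP replicate 3 (0.84, 0.0160), with array weights (0.83, 0.00552) and with centred arrays (0.90, 0.00938).

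**Figure D2:**
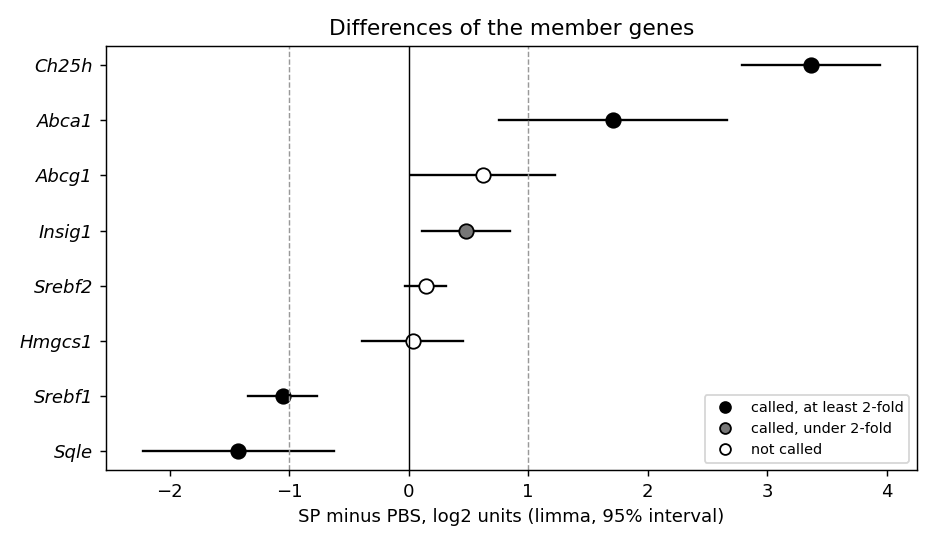
Difference between SP and PBS in log2 units (x axis) for each member (y axis), with the 95% interval of limma (n = 4 arrays per group). Black points were called at 2-fold or more, the grey point (Insig1, 0.48) was called below 2-fold, white points were not called, and dashed lines mark 2-fold.

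Whether SP moved pairs of members unequally was tested on the difference of the genes within each array, a quantity that centring of the arrays leaves as it is. For 4 pairs, all 70 arrangements of the arrays were enumerated in a permutation test (exact, two-sided), with Benjamini-Hochberg adjustment over the 4. The pairs were chosen with earlier results of these data known, so the p-values are descriptive and not independent support. Srebf1 minus Srebf2 moved by -1.20 from PBS to SP, or 2.29-fold. Hmgcs1 minus Sqle moved by 1.46 (2.75-fold) and Ch25h minus Insig1 by 2.89 (7.39-fold). In each of these the groups did not overlap (exact p = 0.0286, the smallest that 70 arrangements allow, adjusted p = 0.0381). Abca1 minus Abcg1 moved by 1.09, with a spread in SP (SD 1.45, n = 4) larger than the shift (exact p = 0.143, adjusted p = 0.143). Its value was 1.69 on SP replicate 3 and between -1.68 and -0.54 on the other SP arrays, and the shift was 0.40 without that array (exact p = 0.286). Without SP replicate 2 it was 1.53 and passed the test (exact p = 0.0286 over 35 arrangements, adjusted p = 0.0286).

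**Figure D3:**
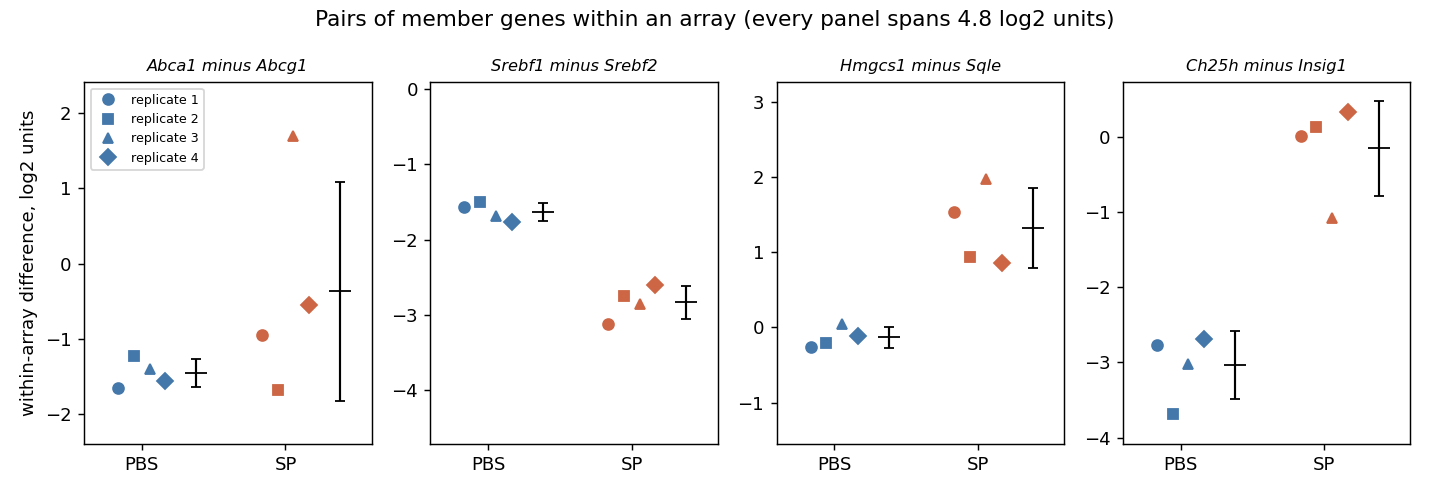
Within-array difference of paired members in log2 units (y axis, every panel spanning the same range) in PBS and SP (x axis); symbols mark replicates and bars show the mean ± SD of 4 arrays. Only the shift between groups is of interest, since levels of different probes are not comparable. Groups do not overlap in 3 pairs, and Abca1 minus Abcg1 is spread by SP replicate 3.

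The members were then placed among other genes of the same pathways. Lists of 87 distinct genes with a row held 79 besides the members, of which 15 were called higher and 36 lower in SP and 28 were not called. The list counts here stand beside 21.5% of all rows called higher and 22.6% called lower, and at 2-fold beside 6.37% and 11.3%. At 2-fold, 8 were higher and 19 lower (70.4% lower), beside 1568 higher and 2773 lower of all rows. With arrays centred on their medians 12 were higher and 14 lower (53.8% lower), beside 2375 higher and 1896 lower of all rows. The median difference of the 79 genes was -0.36, against 0.10 over all rows. Without SP replicate 3 the counts at 2-fold were also 8 and 19. In that fit 19 of the 79 genes were called higher, 36 lower and 24 not called, with a median of -0.29.

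Of 21 sterol synthesis enzymes, 13 were lower, 1 higher and 7 not called, with a median difference of -0.69, and -0.51 without SP replicate 3. At 2-fold 9 were lower. Pmvk, a kinase of the mevalonate pathway, fell 3.33-fold from 8.14 ± 0.64 to 6.40 ± 0.50 (SD, n = 4 each, adjusted p = 0.00460 by limma), beside the fall of Sqle given above. Mvd, the decarboxylase that follows Pmvk, was the sole enzyme called higher with all arrays. It rose 3.18-fold from 6.58 ± 0.16 to 8.25 ± 0.29 (adjusted p = 8.42e-05), with values of 7.96 to 8.56 on the SP arrays and 6.36 to 6.75 on the PBS arrays. SP replicate 3 held the lowest SP value of 16 of the 21 enzymes, against 33.9% of all rows. Without it 3 enzymes were called higher, Mvd and, chosen after their values were seen, Fdft1 and Msmo1 (each by 0.37).

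Among 11 genes of SREBP processing and sterol sensing, 3 were higher, 5 lower and 3 not called, and Srebf1 was the sole call at 2-fold. Scap, the escort of SREBP, fell 1.89-fold from 9.15 ± 0.18 to 8.23 ± 0.23 (SD, n = 4 each, adjusted p = 0.00101 by limma). Insig2, the relative of Insig1, fell 1.49-fold from 9.19 ± 0.06 to 8.62 ± 0.15 (adjusted p = 0.00132), and its SP values (8.44 to 8.78) lay below all PBS values (9.11 to 9.25).

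SREBP targets in lipoprotein uptake and fatty acid synthesis were lower in SP. Of 14 genes, 12 were called lower, 9 of them at least 2-fold, and none was higher, with a median difference of -1.84 (-1.58 without SP replicate 3, which held the lowest SP value of 10 of them). Scd2, a fatty acid desaturase, fell 7.22-fold from 11.59 ± 0.42 to 8.74 ± 0.70 (SD, n = 4 each, adjusted p = 0.000371 by limma). Gpam, which starts glycerolipid synthesis, fell 5.67-fold (0.00164) and Fads2, a desaturase of polyunsaturated fatty acids, 5.34-fold (0.00222).

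Alveolar type 2 cells, which make the lipids of surfactant, are rich in transcripts of fatty acid and sterol synthesis, and their markers moved the same way. Of 9 such markers 7 were lower in SP, 5 of them at least 2-fold (3 without SP replicate 3), and their mean ranged from 12.05 to 12.53 in PBS and from 10.40 to 11.67 in SP. Sftpc, a surfactant protein, fell from 13.33 ± 0.08 to 12.39 ± 0.34 and Cxcl15 from 13.38 ± 0.14 to 11.69 ± 0.82 (SD, n = 4 each). Club cell markers (all 5 with a row lower, range of the mean 12.65 to 13.12 in PBS and 10.40 to 11.20 in SP), ciliated cell markers (all 6 lower, 9.44 to 10.29 and 6.56 to 7.41) and endothelial markers (9 of 11 lower, 10.21 to 11.19 and 8.58 to 9.82) were also lower, and of 7 fibroblast markers 3 were lower. No marker of these lists lay at background. The part of these cells in the lower values of Sqle, Srebf1 and the lists above was not tested, and fewer cells of a type and less RNA per cell cannot be told apart in such samples.

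**Figure D4:**
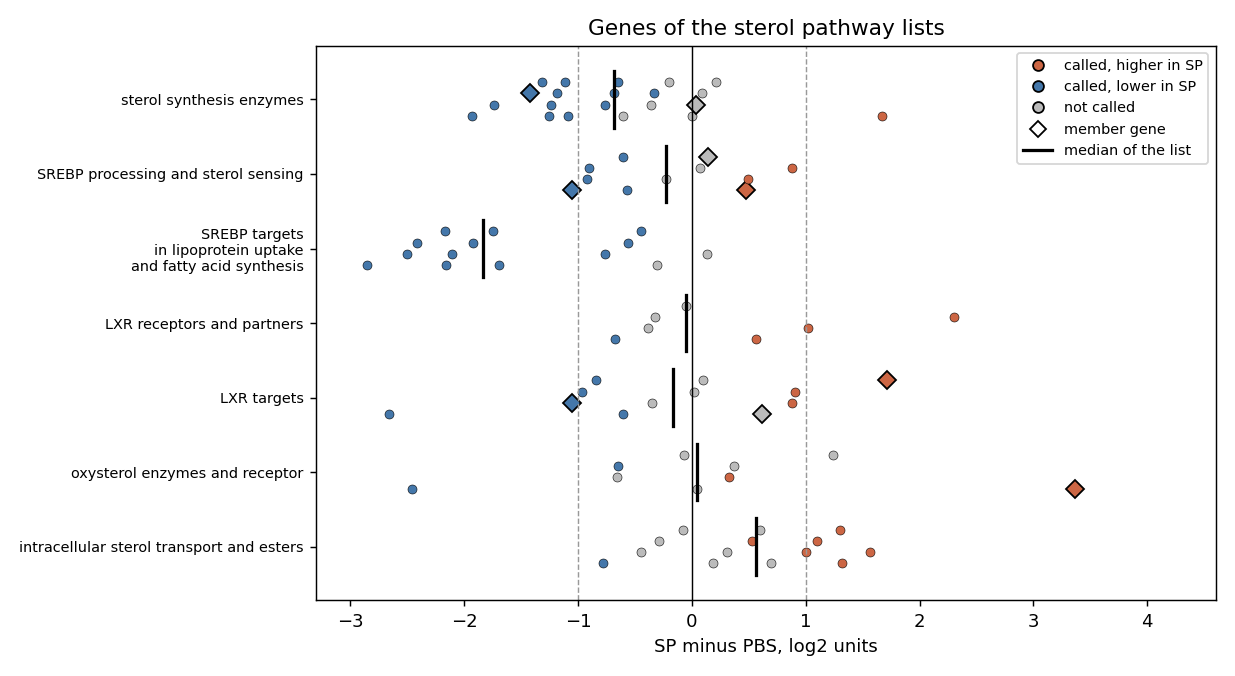
Difference between SP and PBS in log2 units (x axis) of each gene of 7 pathway lists (y axis). Points are coloured by limma's call, diamonds are the members, vertical bars are the list medians and dashed lines mark 2-fold. SREBP targets lie to the left, with a median of -1.84, and genes of sterol transport and esters to the right, with a median of 0.56.

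Receptors upstream of the exporters were compared next. Of 7 LXR receptors and partners, 3 were higher, 1 lower and 3 not called. Nr1h3 (LXRα) lay at 7.77, 7.25, 6.99 and 7.31 in PBS replicates 1 to 4 and at 10.31, 10.19, 8.18 and 9.86 in SP replicates 1 to 4. All SP values were above all PBS values, with SP replicate 3 the lowest of them. Nr1h3 rose 4.94-fold (difference 2.30 ± 0.45 SE, adjusted p = 0.00384 by limma), and by 2.79 without that array. Nr1h2 (LXRβ) rose 1.47-fold from 9.92 ± 0.18 to 10.48 ± 0.20 (adjusted p = 0.00801), and the partner Rxra 2.03-fold from 8.74 ± 0.16 to 9.76 ± 0.24 (0.000555).

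Of 12 LXR targets, among them the members Abca1, Abcg1 and Srebf1, 3 were higher (21.5% of all rows were), 5 lower (22.6%) and 4 not called, with a median of -0.17. Abca1 was the sole rise at 2-fold. Srebf1 fell as given above, and Pltp, which transfers phospholipids between lipoproteins, fell 6.31-fold from 11.40 ± 0.39 to 8.74 ± 0.51 (SD, n = 4 each, adjusted p = 0.000161 by limma). Abcg5 and Abcg8 lay at background in both groups. Monocytes and macrophages also use Abca1, Abcg1, Nr1h3 and Ch25h, and 5 of 9 of their markers were higher in SP, 4 of them at least 2-fold. Without SP replicate 3, 6 of these markers were higher, 5 of them at least 2-fold. The mean of these markers ranged from 8.32 to 9.16 in PBS and from 8.68 to 10.04 in SP. It was lowest among SP arrays on replicate 3, the array with the highest Abca1 and the lowest SP values of Ch25h, Abcg1 and Nr1h3. Cd68, one of these markers, rose from 11.59 ± 0.52 to 12.91 ± 0.15 (adjusted p = 0.00252 by limma). Csf1r, the other bright one, was not called (10.61 ± 0.54 and 11.34 ± 0.28, adjusted p = 0.0547 by limma). C1qa, C1qb and C1qc were not called either (differences 0.02, 0.13 and -0.30). Of 10 alveolar macrophage markers 7 were lower and 1, Chil3, was higher (11.03 ± 0.49 to 11.99 ± 0.39, adjusted p = 0.0216 by limma). The mean of the 10 ranged from 8.42 to 9.19 in PBS and from 7.22 to 7.94 in SP. Krt79 (mean 4.93) and Cidec (4.98), named for their low values, were close to background in SP. The part of monocytes and macrophages in the higher values, and of alveolar macrophages in the lower values, was not tested.

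**Figure D5:**
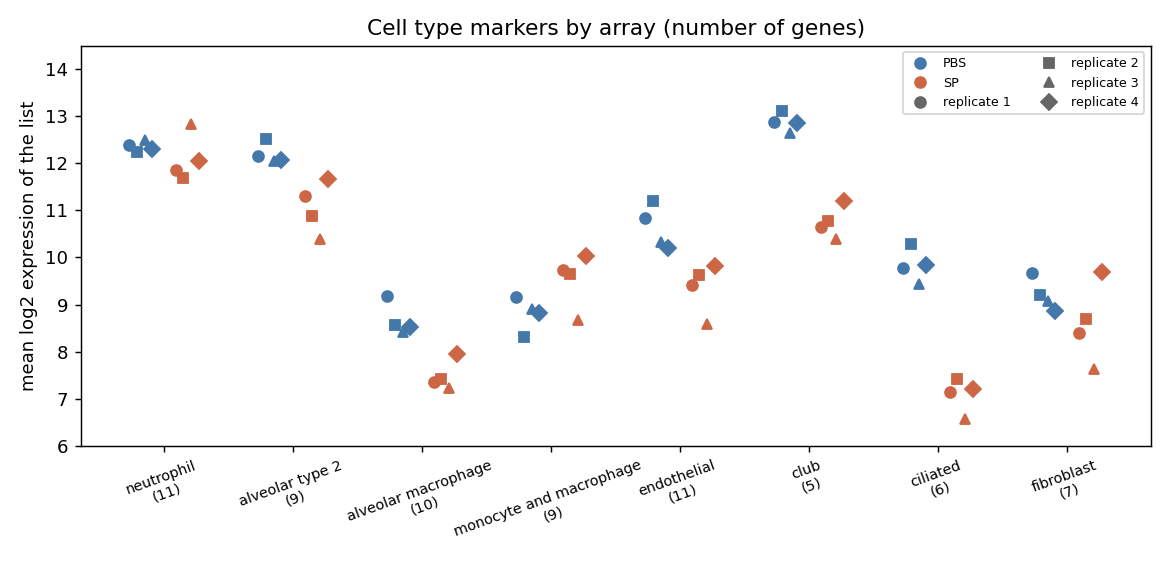
Mean log2 expression of the markers of 8 cell types (y axis) on each array, PBS in blue and SP in orange, with the number of genes of each list on the x axis; symbols mark replicates 1 to 4. Neutrophil markers are bright in both groups. Alveolar type 2, alveolar macrophage, club, ciliated and endothelial markers are lower on all SP arrays. SP replicate 3 has the highest neutrophil and the lowest monocyte and macrophage mean of the SP arrays.

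Other genes of oxysterol metabolism were examined beside Ch25h. Of 9 oxysterol enzymes and receptors with a row, 2 were called higher, Ch25h and Cyp7a1, the latter at background in both groups. Cyp39a1, an oxysterol hydroxylase, fell 5.50-fold from 9.34 ± 0.29 to 6.88 ± 0.57 (SD, n = 4 each, adjusted p = 0.000231 by limma). Cyp7b1, another oxysterol hydroxylase, was chosen after its values were seen. It lay at 5.61 to 5.88 in PBS and at 6.40, 6.89, 6.07 and 8.39 in SP replicates 1 to 4, and its difference of 1.24 was not called (adjusted p = 0.0502 by limma). Without SP replicate 3 the difference was 1.53, or 2.88-fold, and was called (adjusted p = 0.0233). Gpr183, the receptor for the oxysterol that Ch25h and Cyp7b1 make together, was 1.57-fold lower (7.38 ± 0.40 and 6.74 ± 0.31, adjusted p = 0.0456), a call lost in 12 of 15 alternatives.

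Genes of sterol transport and cholesterol esters were higher more often than lower, with 6 of 14 called higher, 1 lower and 7 not called, and a median of 0.56 (7 higher and 1 lower without SP replicate 3). Lipa, the lysosomal lipase that frees cholesterol from esters, rose 2.97-fold from 10.40 ± 0.43 to 11.97 ± 0.19 (SD, n = 4 each, adjusted p = 0.000534 by limma). Stard3, a sterol transfer protein of late endosomes, rose 2.49-fold from 9.23 ± 0.12 to 10.55 ± 0.12 (2.52e-05) and Osbpl8, a lipid exchange protein of the endoplasmic reticulum, 2.47-fold (0.000462). For each of these 3 genes, the largest rises of the list, every SP value lay above every PBS value. The groups did not overlap in 8 of the 14 genes, against 49% of all rows.

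The patterns nearest to the other called members were, for Sqle, among others those of Tlcd3a (0.10 log2 units) and Erg28 (0.11), for Srebf1 those of Kif16b (0.10), Cep41 (0.10) and Gbf1 (0.11), and for Abca1 those of Mybph (0.22), Mir191 (0.24) and Nqo1 (0.24), by the same distance over 8 arrays. For Insig1 they were Ptges2 (0.05), Cyp27b1 (0.08) and Mirlet7i (0.08).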

How the data were processed

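RNA of 8 Ly6G-selected lung neutrophil samples (4 PBS, 4 SP, grouped by the sample titles) was measured on 1 array each. Nothing in the sources used here ties replicate numbers to shared animals or days, and p-values measure the spread between these samples. The deposited log2 values were made by the authors by robust multi-array averaging (background corrected for probe sequence and GC content, then quantile normalization, then summary by median polish), with probesets consolidated by gene or transcript identifier. Such values are relative within an array, so a change in total RNA cannot be read from them. A genome build for the values was not given in the sources used here.

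Rows were named by RefSeq transcript accession (GRCm38.p6 table). Where a symbol had several rows, the row with the highest mean was used. SP was compared with PBS over all 24625 rows with limma (version 3.58.1, R 4.3.3), two-sided, without covariates, with Benjamini-Hochberg adjustment. A row was called at an adjusted p of at most 0.05, and additionally at 2-fold. Intervals are 95% intervals of the same fit. The test was tested on simulated data with 200 changed rows of 24625, of which it recovered 85.0% with 10 false calls. The simulated noise was independent between rows and equally spread in both groups. These rates need not hold for the real arrays, where 44.1% of rows were called. Members, gene lists, marker lists, the 4 pairs and the motifs were chosen with earlier results of these data known. Genes named are the members, up to 3 largest rises and 3 largest falls at 2-fold of each pathway list, Gpr183, Nr1h2, Nr1h3, Scap and Insig2, the brightest markers, and the 3 nearest patterns, and some of the genes so chosen are not reported here. Mbtps1, Mbtps2, Hsd3b7 and the markers Plet1, Scgb3a2 and Foxj1 had no matched row. Alternatives were one-way ANOVA, an intensity trend with robust prior, array weights, blocking on the replicate number, 2 other scalings, leaving out dim rows and leaving out each sample. Figures were drawn with Python 3.11.15.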

Additional observations from a re-analysis of the deposited data

Results flagged for a closer look

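In 4 of 48 groups of 4 samples, 1 sample lay further from the rest than Dixon's critical value allows, where about 2.4 are expected by chance. Among the members this was Srebf2 in PBS replicate 1, at 10.23 against 10.42 to 10.46 in the other PBS samples. Gpr183 was high in PBS replicate 1 (7.98 against 7.14 to 7.27) and low in SP replicate 3 (6.27 against 6.89 on each of the other SP arrays). Gpam was high in PBS replicate 2 (10.04 against 9.36 to 9.39).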

How the results depend on the processing

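Under the 15 alternatives, Ch25h, Abca1, Sqle and Srebf1 kept their direction and call, as did 15 of 16 other named pathway genes, the exception being Gpr183. Members called at 2-fold numbered 4, or 3 in 4 alternatives (centred arrays, another quantile normalization, PBS replicate 2 left out, SP replicate 1 left out). Leaving out 1 sample gave 5 to 9 other pathway genes higher at 2-fold (8 with all samples), with the 5 found without SP replicate 2. The sign of Srebf2 turned after another quantile normalization (-0.012), and that of Hmgcs1 without SP replicate 1 (-0.11) or SP replicate 4 (-0.03), with 0.21 the highest value when a sample was left out (SP replicate 3) and 0.31 the highest of all (centred arrays). With centred arrays 18255 rows were called in place of 10860. At 2-fold, 2375 in place of 1568 were higher and 1896 in place of 2773 lower. With the replicate number as a block (replicate block), members called at 2-fold numbered 4 and Insig1 (0.48) lost its call (adjusted p = 0.0508). Same-numbered samples deviated together in some pairs only (r across rows 0.02, 0.03, 0.35 and -0.27). For PBS and SP samples of unlike number r ranged from -0.36 to 0.28. Whether the numbers pair the samples cannot be told from so few correlations. The shifts of the 4 pairs of members kept their sign without any 1 sample, from -1.28 to -1.10 for Srebf1 minus Srebf2, 1.24 to 1.61 for Hmgcs1 minus Sqle, 2.67 to 3.20 for Ch25h minus Insig1 and 0.40 to 1.53 for Abca1 minus Abcg1. In the first 3 of these the exact test passed in each case (adjusted p at most 0.0381), and in the last it passed only without SP replicate 2 (1.53, adjusted p = 0.0286). Causes of these changes were not tested.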
